A study of Homo sapiens with 16 samples.

Results

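The 9 genes ENC1, SLPI, CA4, SCGN, TLL2, S1PR3, THBS1, GLYATL2 and LCN2 were followed across 16 Illumina HumanHT-12 arrays of LNCaP-1F5 cells, a human prostate cancer line. They were picked, out of 20662 genes with a named probe in the series, as large rises on the version 3 arrays titled DHT, on which FOXA1 read lower than on the arrays titled vehicle. The DHT versus vehicle values of that set therefore chose the genes and are given only as a description. Each array version carries 10 probes for the 9 genes, 2 of them for TLL2 and 1 for each other gene, and all 9 genes passed the filter on dim probes in both sets, among 9020 genes tested on version 3 and 10985 on version 4.

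According to the labels, cells were left untransfected (parental) or were given an siRNA pool against FOXA1 (siFoxA1), kept in charcoal-stripped medium for 3 days, and then exposed for 24 h to hormone at 100 nM or to vehicle. The hormone was dihydrotestosterone (DHT), an androgen, in the first set of 8 arrays (version 3), and DEX in the second set of 8 arrays (version 4). Each set has 4 titled groups of 2 arrays: hormone siFoxA1, hormone parental, vehicle siFoxA1 and vehicle parental, with replicates numbered 1 and 2. The series describes the pairs as biological duplicates, and the p-values below measure only the spread between these arrays. All groups share 1 line and the stripped medium.

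FOXA1 is a pioneer factor: it binds forkhead motifs in closed chromatin and opens sites that steroid receptors then use, and in prostate epithelium it sets where the androgen receptor and the glucocorticoid receptor bind. The 9 genes belong to no single pathway. SLPI and LCN2 encode secreted proteins of epithelial defence, an inhibitor of neutrophil elastase and a carrier of bacterial iron chelators. THBS1 encodes thrombospondin 1, a matrix glycoprotein that can activate latent TGF-beta, and TLL2 a secreted metalloprotease of the tolloid family, which cleaves matrix and growth factor precursors. S1PR3 is a membrane receptor for the lipid sphingosine 1-phosphate, and CA4 is a carbonic anhydrase held on the outer cell surface. Inside the cell, SCGN (secretagogin) binds calcium through EF hands, ENC1 is a kelch-repeat protein that binds actin, and GLYATL2 joins fatty acyl groups to glycine.

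Promoters from RefSeq (GRCh38.p14) were matched by symbol for 6 of the 9 genes, as 7 promoters, S1PR3 having 2. Short words were searched on both strands of the 250 bases before each start: TGTTTAC or TGTTTGC for forkhead factors, AGAACA for the half-site shared by the androgen and glucocorticoid receptors, TATAAA for the TATA box, GGGCGG for the GC box and TGAGTCA for AP-1. GC boxes can overlap one another. The GLYATL2 promoter, with 32.8% G or C, held a forkhead word at bases 143 to 137 before the matched start. It also held a receptor half-site at bases 66 to 61 on the other strand and a TATA box at bases 30 to 25. It was the 1 promoter of the 7 with any of these 3. Its window lies inside the annotated gene, which spans 58834065 to 58909828 on chromosome 11, and so not at the outermost start of this minus-strand gene. SCGN held an AP-1 word at bases 205 to 199 and 3 GC boxes, THBS1 held 4 GC boxes, TLL2 held 1, and the second S1PR3 promoter held 8. The LCN2 promoter and the first of S1PR3 held no searched word in this window. Over all 35116 promoters of the table, 6.09% held a forkhead word, 12.4% the half-site, 10.7% the TATA box, 42.6% a GC box and 4.2% an AP-1 word, and the median share of G or C was 58.0%. The share was 57.6% for SCGN, 69.6% for THBS1, 72.8% for TLL2, 54.8% for LCN2, and 57.2% and 76.4% for the S1PR3 promoters. As examples chosen for their contrast, 3 windows follow, 5′ to 3′ on the strand of the gene with matched words in capitals. They are GLYATL2 at chr11:58844705-58844954 on the minus strand, and SCGN at chr6:25651965-25652214 and THBS1 at chr15:39580829-39581078 on the plus strand.
GLYATL2: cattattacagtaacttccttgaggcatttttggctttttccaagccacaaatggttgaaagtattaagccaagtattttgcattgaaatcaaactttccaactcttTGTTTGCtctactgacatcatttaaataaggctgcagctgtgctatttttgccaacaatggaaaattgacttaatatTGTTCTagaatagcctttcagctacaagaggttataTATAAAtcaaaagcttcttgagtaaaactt
SCGN: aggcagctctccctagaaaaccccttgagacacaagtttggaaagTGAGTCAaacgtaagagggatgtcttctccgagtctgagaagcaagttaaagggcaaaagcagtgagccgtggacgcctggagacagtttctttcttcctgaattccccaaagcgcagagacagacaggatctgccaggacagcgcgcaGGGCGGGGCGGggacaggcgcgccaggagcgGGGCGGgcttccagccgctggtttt
THBS1: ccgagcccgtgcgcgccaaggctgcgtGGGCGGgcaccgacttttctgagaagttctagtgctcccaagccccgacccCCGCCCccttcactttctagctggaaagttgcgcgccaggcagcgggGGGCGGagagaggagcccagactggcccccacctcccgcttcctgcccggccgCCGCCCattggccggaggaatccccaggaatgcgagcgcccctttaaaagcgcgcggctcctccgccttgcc

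The targeted gene was read first, on the log2 scale of normalized intensity used for all levels below. In the DHT set FOXA1 read 12.28 and 12.37 on the arrays titled DHT siFoxA1 and 12.24 and 12.25 on those titled DHT parental, against 13.57 and 13.68 on those titled vehicle siFoxA1 and 13.54 and 13.61 on those titled vehicle parental (replicates 1 and 2 in turn). The level was thus split by the hormone title, and the arrays titled siFoxA1 were not lower than those titled parental. In the DEX set it read 10.84 and 10.84 on the siFoxA1 arrays of replicate 2, 12.67 and 12.65 on those of replicate 1, 12.17 and 12.09 on the parental arrays of replicate 2, and 13.37 and 13.36 on those of replicate 1 (DEX and vehicle titles in turn). There FOXA1 was lower on the arrays titled siFoxA1 within each replicate number and lower in replicate 2 within each siRNA title. FKBP5, a textbook target of both receptors, was chosen here after its values were seen. In replicate 2 of the DHT set it read 12.97 and 13.16 on arrays titled DHT and 12.14 and 12.15 on those titled vehicle. In replicate 1 of that set it read 7.76 to 8.22, with the hormone titles overlapping. In the DEX set it read 13.80 to 13.89 on the arrays titled siFoxA1 and 9.21 to 9.39 on those titled parental, under either hormone title. The siRNA title of the DHT set is thus not borne out by FOXA1, nor the hormone title of the DEX set by FKBP5. In the DHT set FKBP5 was higher under DHT titles in replicate 2 only. The replicate number separates FOXA1 in the DEX set and, by a wider margin than the hormone title, FKBP5 in the DHT set. Whether titles and replicate numbers match the arrays was not tested, so every difference below is one between arrays as titled.

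Each array of the DHT set detected 11218 to 12886 probes, and each of the DEX set 15933 to 17168, detection meaning a p under 0.01 against the negative control beads of the array. Luminal prostate genes were present, with 6 of 7 probed markers detected on all version 3 arrays and 7 of 7 on all version 4 arrays. Of 3 probed basal keratins, KRT5 and KRT14 were detected on no array, and KRT15 on no version 3 array and on some but not all version 4 arrays. None of 8 leukocyte and neutrophil markers was detected on any version 3 array, and 7 of 8 were detected on no version 4 array. Of 7 probed neuroendocrine markers, CHGA, CHGB, SYP, NCAM1, SCG2 and SCG3 were detected on no array of either set, and ENO2 was detected on all. In the DEX set the summed linear level of the 3 basal keratins was 40.3 to 54.7 in replicate 2 and 29.9 to 36.6 in replicate 1 of siFoxA1 titles, and 43.7 to 58.2 in replicate 2 and 19.8 to 26.6 in replicate 1 of parental titles. There, the summed linear level of the 8 leukocyte markers was 120.3 to 139.7 in replicate 2 and 90.9 to 129.3 in replicate 1, and that of 7 fibroblast markers was 601.2 to 756.2 in replicate 2 and 455.1 to 622.2 in replicate 1. The basal and leukocyte sums rest mostly on undetected probes, and of the fibroblast markers COL1A2 and LUM were detected on no version 4 array. Within each siRNA title the leukocyte ranges of the 2 replicates overlapped. The fibroblast ranges overlapped in siFoxA1 titles but not in parental titles, at 654.2 to 756.2 in replicate 2 and 507.8 to 521.6 in replicate 1. In parental titles VIM was called higher in replicate 2 (0.60, SE 0.15), where 11.7% of all genes were. The luminal sums overlapped in siFoxA1 titles, and in parental titles were 9386 to 9543 in replicate 2 and 10374 to 10555 in replicate 1. Whether basal, leukocyte or fibroblast cells were present, and the part of any of these markers in the results, was not tested.

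On the DHT set, which chose them, the genes read as follows. Of 40 probe readings (10 probes on 4 arrays), 39 were detected on the arrays titled DHT and 12 on the arrays titled vehicle. SLPI read 10.37 and 11.70 on the DHT siFoxA1 arrays and 10.04 and 11.64 on the DHT parental arrays (replicates 2 and 1 in turn), against 4.77 to 5.71 on the 4 vehicle arrays, where it was not detected. CA4 read 10.70 and 9.81 on the DHT siFoxA1 arrays and 10.61 and 10.07 on the DHT parental arrays, against 5.66 to 5.93 on the vehicle arrays, none of them detected. SCGN read 10.01 and 9.38 on the DHT siFoxA1 arrays and 9.52 and 9.56 on the DHT parental arrays, against 4.91 to 5.45, undetected, on the vehicle arrays. The first TLL2 probe read 8.81 to 9.64 on the DHT arrays and 4.86 to 5.73, undetected, on the vehicle arrays. The second TLL2 probe was at 6.20 to 7.20 and detected on 3 of the 4 DHT arrays, and at 4.55 to 5.16 and undetected on the vehicle arrays. SLPI, CA4, SCGN and the first TLL2 probe were thus detected on every array titled DHT and on none titled vehicle.

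The other 5 genes were detected on at least 1 array titled vehicle. ENC1 was detected on every array, at 11.92 to 12.12 on the arrays titled DHT and 6.85 to 7.30 on those titled vehicle. S1PR3 was also detected on every array, at 11.22 to 12.30 on the arrays titled DHT and 6.94 to 8.15 on those titled vehicle. LCN2 read 8.90 to 9.65 on the DHT arrays and 5.88 to 6.72 on the vehicle arrays, where it was detected on both siFoxA1 arrays and on neither parental array. THBS1 read 9.38 to 10.08 on the DHT arrays and 4.66 to 6.53 on the vehicle arrays, of which 1 was detected, and GLYATL2 read 9.21 to 9.59 on the DHT arrays and 4.59 to 6.21 on the vehicle arrays, of which 1 was detected.

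**Figure D1:**
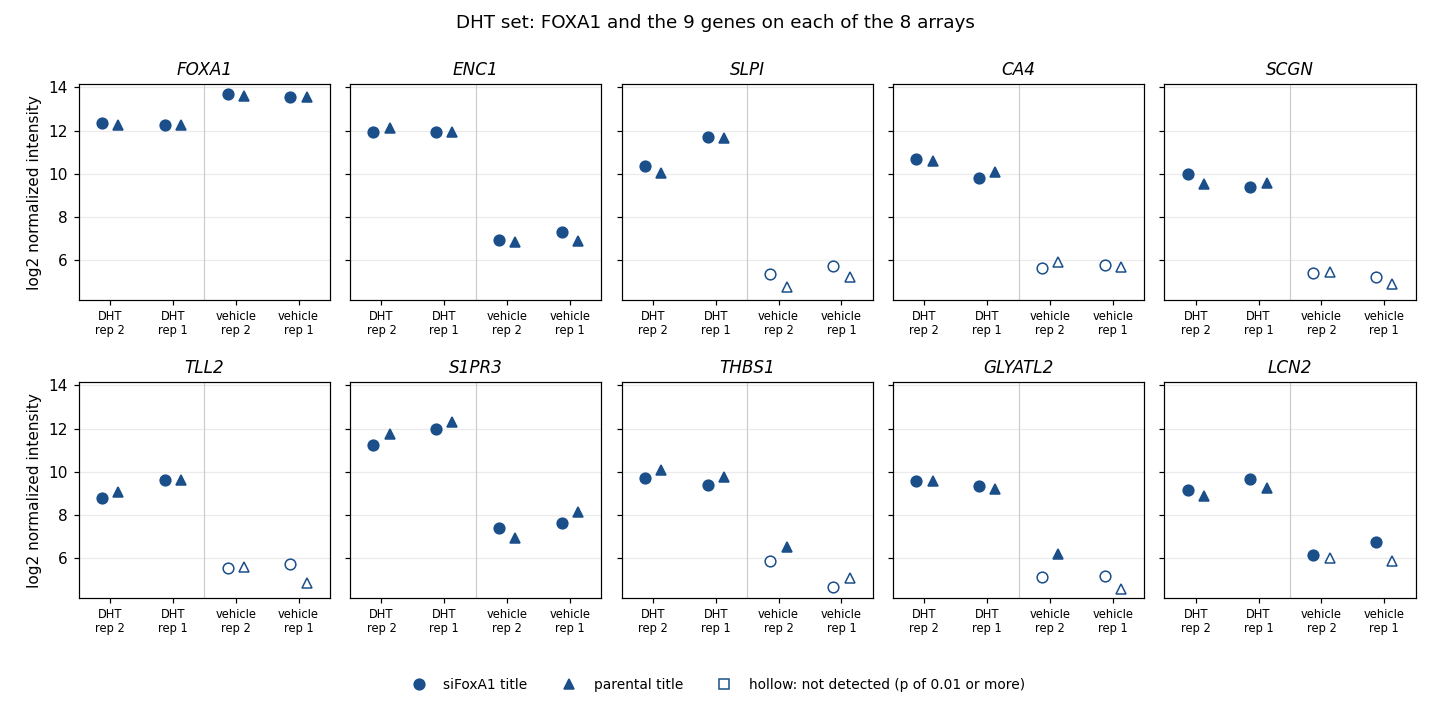
Log2 normalized intensity (y axis) of FOXA1 and the 9 genes on the 8 arrays of the DHT set, grouped by hormone title and replicate number (x axis), with 1 point per array, circles for siFoxA1 titles and triangles for parental titles. FOXA1 is at 12.24 to 12.37 on the arrays titled DHT and at 13.54 to 13.68 on those titled vehicle, each of the 9 genes is higher on the arrays titled DHT, and hollow points were not detected.

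As log2 differences of DHT minus vehicle titles, the 9 genes spanned 2.98 to 5.51 in siFoxA1 titles and 3.14 to 5.86 in parental titles, with medians of 4.30 and 4.36 against -0.03 and -0.02 over all genes tested. All 9 passed the limma test in both, where 0.41% and 0.421% of genes were called higher; since these values chose the genes, nothing is read from the count. SLPI differed by 5.51 and 5.86 in siFoxA1 and parental titles. LCN2 had the smallest fitted difference of the 9 in both, and 13 genes outside the 9 lay above it in each. Where a gene was not detected on any array of the lower group, a bound is given: the mean of the higher group over the lowest level that counted as detected on the lower arrays. SLPI was then at least 34.2-fold higher in siFoxA1 titles and at least 29.0-fold in parental titles, and CA4 at least 19.9-fold and at least 20.4-fold.

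The siRNA title did not separate the 9 genes in the DHT set. The differences of siFoxA1 minus parental titles lay between -0.42 and 0.34 on DHT arrays and between -0.54 and 0.54 on vehicle arrays. The limma test called 0 of 9 in either, with 0 of 9 at an unadjusted p under 0.05, and 0% of all genes were called. Over the 4 pairs of arrays that shared hormone title and replicate number, 22 of the 36 readings (9 genes in 4 pairs) were detected on both arrays and differed by at most 0.51, and the largest difference over all 36 was 1.08.

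The replicate number did separate several of them. Luminal prostate markers also moved with it, as FKBP5 did: 6 of the 7 probed were called higher in replicate 2 under both hormone titles. Of all genes, 9.59% were called higher there in DHT titles and 7.56% in vehicle titles. The summed linear level of the luminal markers in DHT titles was 19899 to 20111 in replicate 2 and 6696 to 8013 in replicate 1. In vehicle titles it was 34928 to 37396 in replicate 2 and 10237 to 11377 in replicate 1. The sum of 4 endothelial markers was 155.7 to 180.9 in replicate 2 and 68.9 to 73.7 in replicate 1 of vehicle titles. In DHT titles the sums overlapped, at 68.3 to 90.6 in replicate 2 and 64.6 to 85.1 in replicate 1. Of these markers VWF alone was called, in vehicle titles (1.99, SE 0.34), and CDH5 and TEK were detected on no version 3 array. The part of the luminal and endothelial markers in the results was not tested. Because arrays that share a replicate number deviate together, replicate 2 was compared with replicate 1 within each hormone title, with the siRNA title as a further term. On arrays titled DHT, SLPI was lower in replicate 2 by the values given above, 10.37 and 10.04 against 11.70 and 11.64, a difference of -1.46 (SE 0.19, adjusted p = 1.81e-06). S1PR3 read 11.22 and 11.73 in replicate 2 and 11.98 and 12.30 in replicate 1 (siFoxA1 and parental titles in turn), a difference of -0.67 (SE 0.18, adjusted p = 0.00879). TLL2 read 8.81 and 9.09 in replicate 2 and 9.64 and 9.63 in replicate 1, a difference of -0.69 (SE 0.25, adjusted p = 0.0468), while its second probe differed by -0.19 (adjusted p = 0.769 over all probes). CA4 went the other way, at 10.70 and 10.61 in replicate 2 and 9.81 and 10.07 in replicate 1, a difference of 0.72 (SE 0.19, adjusted p = 0.00795). Thus 3 of 9 fell and 1 of 9 rose, where 11.2% of all genes fell and 9.59% rose, and in each of the 4 the replicate groups did not overlap, as was so for 55.2% of all genes. Without the DHT siFoxA1 array of replicate 1 or of replicate 2, 0 of the 9 were called higher, and without the DHT siFoxA1 array of replicate 2 or the DHT parental array of replicate 1, 1 was called lower.

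The other 5 genes did not pass on arrays titled DHT. Their differences of replicate 2 minus replicate 1 were -0.42 for LCN2 (95% interval -0.85 to 0.02), 0.10 for ENC1 (-0.23 to 0.42), 0.30 for SCGN (-0.16 to 0.75), 0.31 for GLYATL2 (-0.25 to 0.88) and 0.34 for THBS1 (-0.08 to 0.76). Intervals of this width do not show that the replicates were alike. FOXA1 differed by 0.05 between the replicates there (SE 0.11, adjusted p = 0.794).

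On arrays titled vehicle, 7.56% of genes rose and 7.02% fell in replicate 2, against 1 of 9 each way here. THBS1 read 5.88 and 6.53 in replicate 2, the second detected, and 4.66 and 5.10, both undetected, in replicate 1. The difference was 1.32 (SE 0.20, limma, adjusted p = 2.73e-05). Because 1 array of the higher group was itself undetected, no bound on the fold is given. S1PR3 read 7.40 and 6.94 in replicate 2 and 7.65 and 8.15 in replicate 1, a difference of -0.73 (SE 0.18, adjusted p = 0.0060). S1PR3 was therefore lower in replicate 2 under both hormone titles, by amounts whose difference was 0.06 (95% interval -0.47 to 0.59). The test of that difference called 2 of the 9, both lower, where 4.15% of genes were called lower: SLPI at -1.07 (SE 0.27, adjusted p = 0.0137) and THBS1 at -0.99 (SE 0.29, adjusted p = 0.0343). Both rest on vehicle arrays at or below detection, 4 of 4 for SLPI and 3 of 4 for THBS1. With 1 array left out at a time, this test called 0 without the DHT parental array of either replicate, the DHT siFoxA1 array of replicate 2 or the vehicle parental array of replicate 1, 1 without the DHT siFoxA1 array of replicate 1, the vehicle siFoxA1 array of replicate 2 or the vehicle parental array of replicate 2, and 2 without the remaining array. S1PR3 lost its call on vehicle titles without the vehicle parental array of either replicate, and 2 of the 9 were called higher there without the DHT array of replicate 1 of either siRNA title or the vehicle siFoxA1 array of either replicate.

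The rule that picked the genes names DHT-set values only, but the members were chosen with earlier results of these data known. The DEX set is therefore not an independent check. There the 9 rose with the replicate number. In replicate 2, where FOXA1 was lower, 40 of 40 probe readings were detected, against 20 of 40 in replicate 1. All 9 were called higher in replicate 2 in both siRNA titles, where 11.2% of all genes were called higher in siFoxA1 titles and 11.7% in parental titles. SCGN, LCN2 and TLL2 were detected on at most 1 array of replicate 1 and passed the filter only through replicate 2, so for these 3 a difference in this direction was built in. Differences ran from 1.42 to 4.18 in siFoxA1 titles (median 2.52, all genes 0.00) and from 2.37 to 6.60 in parental titles (median 4.01, all genes -0.01).

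**Figure D2:**
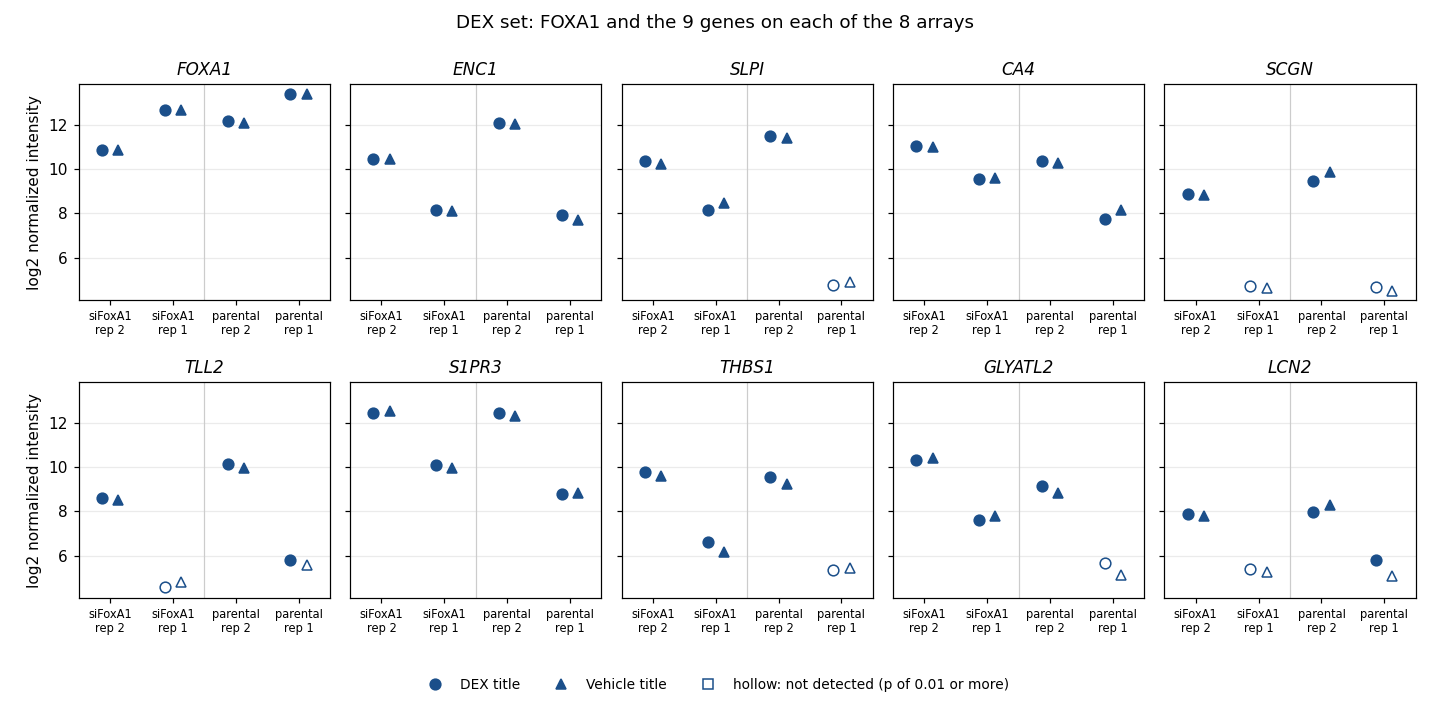
Log2 normalized intensity (y axis) of FOXA1 and the 9 genes on the 8 arrays of the DEX set, grouped by siRNA title and replicate number (x axis), with 1 point per array, circles for DEX titles and triangles for vehicle titles. Both arrays of a pair lie close together, FOXA1 is lowest at 10.84 on the siFoxA1 arrays of replicate 2, and the hollow, undetected points are all in replicate 1.

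Of the 2 defence genes, SLPI read 10.38 and 10.24 on the siFoxA1 arrays of replicate 2 and 8.16 and 8.48 on those of replicate 1 (DEX and vehicle titles in turn), a difference of 1.99 (SE 0.15, adjusted p = 1.18e-08). On parental arrays it read 11.47 and 11.38 in replicate 2 and 4.77 and 4.89, undetected, in replicate 1, at least 55.8-fold higher (difference 6.60, SE 0.15, adjusted p = 2.51e-16). LCN2 read 7.90 and 7.80 against 5.38 and 5.28, undetected, in siFoxA1 titles, at least 4.82-fold higher (difference 2.52, SE 0.26, adjusted p = 5.84e-07). It read 7.98 and 8.28 in replicate 2 and 5.80 and 5.07 in replicate 1 of the parental titles, the last undetected, a difference of 2.70 (SE 0.26, adjusted p = 1.87e-07). Both genes thus rose under both siRNA titles.

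Among the matrix proteins, THBS1 read 9.79 and 9.61 on the siFoxA1 arrays of replicate 2 and 6.60 and 6.17 on those of replicate 1, a difference of 3.32 (SE 0.19, adjusted p = 1.75e-10). On parental arrays it read 9.56 and 9.24 in replicate 2 and 5.35 and 5.43, undetected, in replicate 1, at least 13.7-fold higher (difference 4.01, SE 0.19, adjusted p = 5.07e-12). The first TLL2 probe read 8.62 and 8.52 against 4.58 and 4.80, undetected, in siFoxA1 titles (at least 7.95-fold, difference 3.88, SE 0.21, adjusted p = 8.53e-11). In parental titles it read 10.14 and 9.96 in replicate 2 and 5.82 and 5.57 in replicate 1, the last undetected (difference 4.36, SE 0.21, adjusted p = 6.26e-12). The second TLL2 probe rose as well, by 1.51 in siFoxA1 titles and 3.41 in parental titles (limma, adjusted p = 0.00135 and 6.51e-08 over all probes). It was detected on no array of replicate 1. Both probes of this protease thus passed the filter only through replicate 2, and their shared direction was built in.

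At the cell surface, S1PR3 was detected on all 8 arrays. It read 12.45 and 12.54 in replicate 2 and 10.07 and 9.95 in replicate 1 of the siFoxA1 titles (difference 2.49, SE 0.11, adjusted p = 3.04e-12). In parental titles it read 12.44 and 12.29 in replicate 2 and 8.78 and 8.82 in replicate 1 (difference 3.57, SE 0.11, adjusted p = 5.22e-15). The 4 arrays of replicate 2 thus lay within 12.29 to 12.54 for this receptor. CA4 read 11.03 and 10.97 in replicate 2 and 9.56 and 9.59 in replicate 1 of the siFoxA1 titles, a difference of 1.42 (SE 0.14, adjusted p = 1.91e-07). In parental titles it read 10.37 and 10.25 in replicate 2 and 7.74 and 8.14 in replicate 1, a difference of 2.37 (SE 0.14, adjusted p = 8.47e-11), the smallest fitted difference of the 9 under both titles.

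Inside the cell, ENC1 read 10.44 and 10.46 in replicate 2 and 8.16 and 8.09 in replicate 1 of the siFoxA1 titles (difference 2.33, SE 0.12, adjusted p = 7.58e-11), and in parental titles 12.09 and 12.02 in replicate 2 and 7.90 and 7.70 in replicate 1 (difference 4.25, SE 0.12, adjusted p = 3.91e-15). SCGN was undetected on all 4 arrays of replicate 1, at 4.51 to 4.72, and read 8.87 and 8.83 on the siFoxA1 and 9.46 and 9.87 on the parental arrays of replicate 2. Its bounds were at least 9.66-fold and at least 16.5-fold higher (adjusted p = 1.05e-10 and 2.88e-12). This calcium binder was detected where CHGA, SYP, NCAM1, SCG2, SCG3 and CHGB were not, whereas ENO2 was detected on all arrays. GLYATL2 read 10.30 and 10.38 in replicate 2 and 7.62 and 7.80 in replicate 1 of the siFoxA1 titles (difference 2.63, SE 0.19, adjusted p = 3.89e-09). On parental arrays it read 9.16 and 8.84 in replicate 2 and 5.65 and 5.12, undetected, in replicate 1, at least 10.4-fold higher (difference 3.61, SE 0.19, adjusted p = 2.46e-11). For each of the 9, the arrays of replicate 2 lay wholly above those of replicate 1 in both titles, as was so for 31.2% of all genes in siFoxA1 titles and 28.5% in parental titles. For SCGN, LCN2 and TLL2 this direction was built in by the filter on dim probes, so these shares can be set beside the other genes only.

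**Figure D3:**
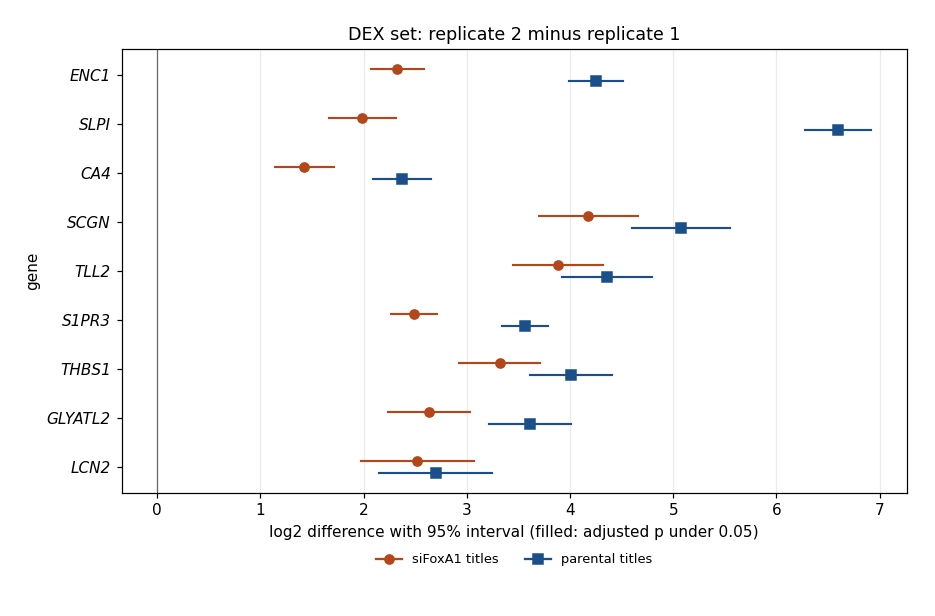
Difference of replicate 2 minus replicate 1 in the DEX set on the log2 scale (x axis) for each of the 9 genes (y axis), with the estimate and its 95% interval from the fit over all genes, circles for siFoxA1 titles and squares for parental titles. All 18 estimates lie above 0 and pass the test, from 1.42 for CA4 in siFoxA1 titles to 6.60 for SLPI in parental titles. For SCGN, LCN2 and TLL2 the direction was built in by the filter on dim probes.

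The rise was smaller in siFoxA1 titles for all 9 genes, and the test of the difference between titles called 5 of them, where 2.79% of genes were called lower. SLPI stood at -4.61 (SE 0.22, adjusted p = 1.26e-10), and ENC1 at -1.92 (SE 0.18, adjusted p = 7.80e-07). S1PR3 stood at -1.08 (SE 0.15, adjusted p = 0.000143), CA4 at -0.95 (SE 0.19, adjusted p = 0.0050) and GLYATL2 at -0.98 (SE 0.27, adjusted p = 0.036). For SLPI and GLYATL2 the parental arrays of replicate 1 were both undetected, so the fitted size of this difference depends on the background level there. Without the vehicle siFoxA1 array of replicate 2 this test called 3, and without background correction GLYATL2 stood at 0.044. The remaining differences were -0.90 for SCGN (95% interval -1.58 to -0.22), -0.69 for THBS1 (-1.25 to -0.14), -0.48 for TLL2 (-1.09 to 0.14) and -0.18 for LCN2 (-0.95 to 0.60). FOXA1 itself fell by more in siFoxA1 titles than in parental titles, by 1.82 against 1.23, with a difference between them of -0.58 (SE 0.13, adjusted p = 0.00859).

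Read along the siRNA title instead, the 9 genes did not move together. In replicate 2, GLYATL2 was higher in siFoxA1 than in parental titles by 1.34 (SE 0.19, adjusted p = 1.31e-05) and CA4 by 0.69 (SE 0.14, adjusted p = 0.000495). ENC1 was lower by 1.60 on the log2 scale (difference -1.60, SE 0.12, adjusted p = 3.70e-09), and so were TLL2 (-1.48, SE 0.21, adjusted p = 1.39e-05), SLPI (-1.12, SE 0.15, adjusted p = 1.09e-05) and SCGN (-0.81, SE 0.23, adjusted p = 0.00913). So 2 of 9 rose and 4 fell, where 15.5% of all genes rose and 19% fell. The second TLL2 probe was lower as well, at -1.77 (adjusted p = 0.000167 over all probes). THBS1, S1PR3 and LCN2 differed by 0.30, 0.13 and -0.29, with 95% intervals of -0.09 to 0.70, -0.10 to 0.35 and -0.83 to 0.26.

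In replicate 1, 5 of 9 rose in siFoxA1 titles and 1 fell, where 14.4% of all genes rose and 16.7% fell. SLPI, at 8.16 and 8.48 against an undetected 4.77 and 4.89, was at least 6.49-fold higher (difference 3.49, SE 0.15, adjusted p = 6.11e-13). GLYATL2 was at least 4.25-fold higher by the levels given above (difference 2.33, SE 0.19, adjusted p = 8.76e-09). CA4 rose by 1.64 (SE 0.14, adjusted p = 1.20e-08), S1PR3 by 1.21 (SE 0.11, adjusted p = 3.26e-08) and THBS1 by 0.99 (SE 0.19, adjusted p = 0.000442). TLL2 was lower at -1.003 (SE 0.21, adjusted p = 0.00105), a difference that lies near the detection limit, with 1 of the 4 arrays detected and the second probe at 0.12 (adjusted p = 0.814). ENC1 differed by 0.32 (95% interval 0.06 to 0.58, adjusted p = 0.056), SCGN was undetected on all 4 arrays, and LCN2 was detected on 1 of them.

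SLPI was therefore higher in siFoxA1 titles in replicate 1 and lower in replicate 2, while GLYATL2 and CA4 were higher in both. TLL2 was lower in replicate 2, and in replicate 1 only its first probe, undetected on 3 of 4 arrays, was called lower. Fitted by titled group alone, with the replicates averaged, the siFoxA1 minus parental comparison called 0 of 9 genes with DEX and 0 of 9 with vehicle (0 of 9 at an unadjusted p under 0.05 in each), where 3.35% and 3.44% of all genes were called. With the replicate number as a block, 2 of the 9 were called higher and 1 lower in each.

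**Figure D4:**
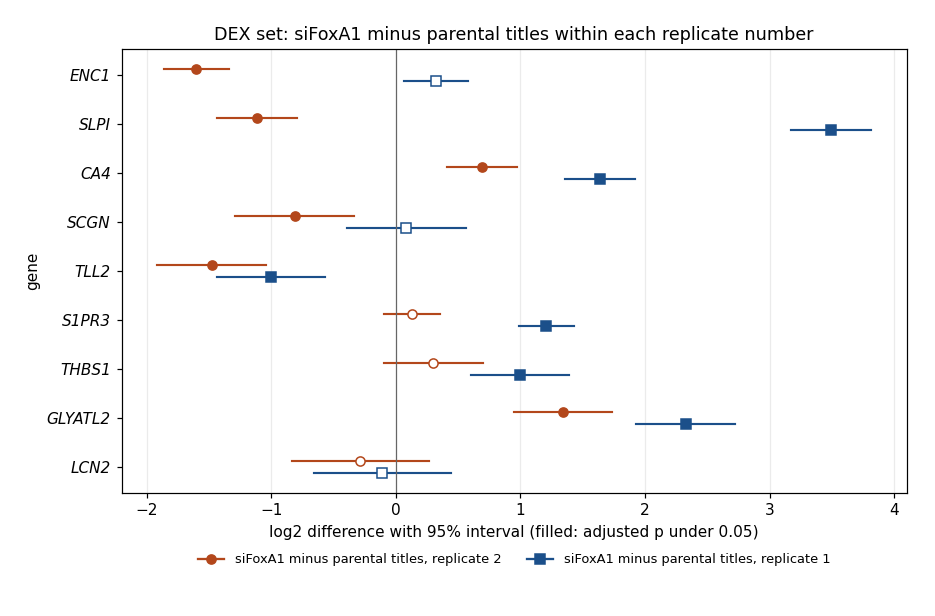
Difference of siFoxA1 minus parental titles in the DEX set on the log2 scale (x axis) for each gene (y axis) within replicate 2 (circles) and replicate 1 (squares), with 95% intervals and filled symbols where the adjusted p was under 0.05. SLPI lies at -1.12 in replicate 2 and 3.49 in replicate 1, whereas GLYATL2 and CA4 lie above 0 in both. TLL2 lies below 0 in both, in replicate 1 with 3 of 4 arrays undetected.

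Set in order of FOXA1, the 4 pairs of DEX-set arrays run from siFoxA1 replicate 2, the lowest, through parental replicate 2 and siFoxA1 replicate 1 to parental replicate 1. CA4, GLYATL2, S1PR3 and THBS1 followed the opposite order over all 4 pairs, at means of 11.002, 10.31, 9.58 and 7.94 for CA4 and 10.34, 8.997, 7.71 and 5.38 for GLYATL2. S1PR3 (12.49, 12.37, 10.01 and 8.80) and THBS1 (9.70, 9.40, 6.38 and 5.39) ran the same way. ENC1 and SLPI were highest in the second pair, parental replicate 2, at means of 12.05 and 11.42, above 10.45 and 10.31 in siFoxA1 replicate 2. SCGN and TLL2 were also highest in parental replicate 2, and so by its mean was LCN2, at 8.13 against 7.85 in siFoxA1 replicate 2. For S1PR3, THBS1 and LCN2 the 2 pairs of replicate 2 did not differ beyond the test.

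**Figure D5:**
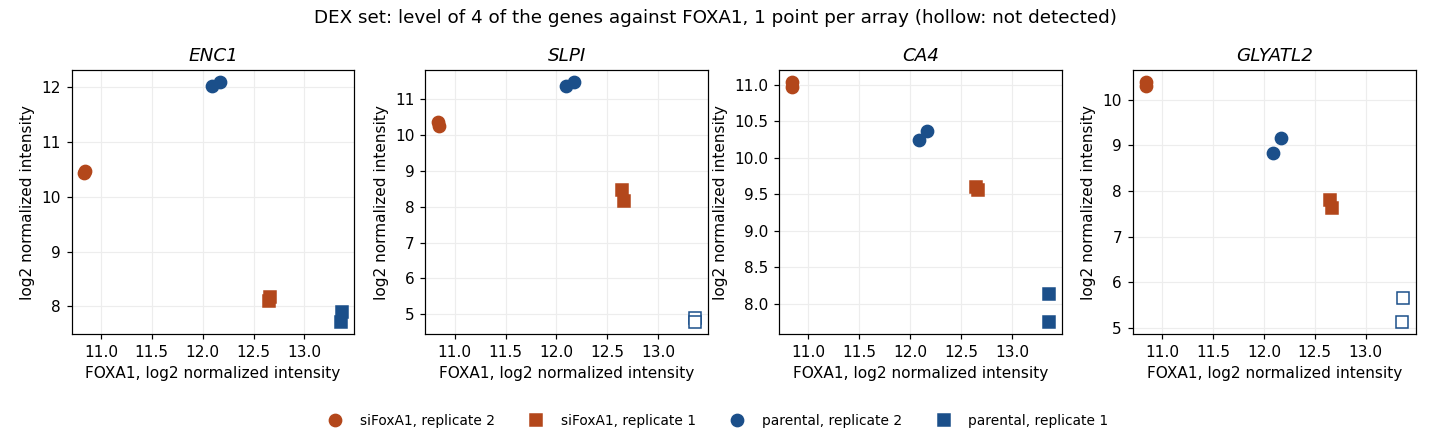
Log2 normalized intensity of ENC1, SLPI, CA4 and GLYATL2 (y axes) against that of FOXA1 (x axis) on the 8 arrays of the DEX set, 1 point per array, by siRNA title (colour) and replicate number (shape). CA4 and GLYATL2 are highest where FOXA1 is lowest, at 10.84, whereas ENC1 and SLPI peak on the parental arrays of replicate 2, where FOXA1 is 12.09 to 12.17.

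The DEX title did not separate the 9 genes. Differences of DEX minus vehicle titles lay between -0.13 and 0.30 in siFoxA1 titles and between -0.14 and 0.43 in parental titles. The limma test called 0 of 9 in either (0 of 9 at an unadjusted p under 0.05), and 0% of all genes were called. Over the 4 pairs of arrays that shared siRNA title and replicate number, 27 of the 36 readings (9 genes in 4 pairs) were detected on both arrays and differed by at most 0.42 between DEX and vehicle arrays, and over all 36 the median was 0.13 and the largest 0.74.

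Genes related by family or pathway were counted for replicate 2 against replicate 1 of the DEX set, where the all-gene medians were 0.00 in siFoxA1 and -0.01 in parental titles. Among 20 epithelial defence genes, 7 were measured, and 4 rose in each title, SLPI and LCN2 among them, where 11.2% of all genes rose in siFoxA1 and 11.7% in parental titles (median 0.50 in siFoxA1 and 0.84 in parental titles). Beyond SLPI and LCN2, these were the acute phase gene SAA1 (2.89, SE 0.36) and the NF-kB inhibitor NFKBIA (0.31, SE 0.10) in siFoxA1 titles, and the immunoglobulin transporter PIGR (1.4997, SE 0.36) and NFKBIA (0.65, SE 0.10) in parental titles. Of 15 TGF-beta and matrix genes, 7 were measured. In siFoxA1 titles THBS1 and CCN1 (1.08, SE 0.16) rose, and in parental titles THBS1, CCN1 (0.53, SE 0.16) and the actin binder TAGLN (0.52, SE 0.18) rose while CCN2 fell (-1.27, SE 0.25); the list medians were 0.12 and 0.52. Of the 7 measured genes of this list, 2 thus rose in siFoxA1 titles and 3 in parental titles, the picked THBS1 among them in both.

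For the sphingosine 1-phosphate list, 11 of 14 genes were measured, with medians of 0.13 and -0.19. S1PR3 alone rose in siFoxA1 titles, where the ceramide synthase CERS2 (-0.46, SE 0.11) and the phosphatase SGPP2 (-0.90, SE 0.30) fell. In parental titles the exporter SPNS2 (2.15, SE 0.35) and the phosphatase SGPP1 (1.12, SE 0.27) rose beside the receptor. Thrombospondins and their receptors had 6 of 10 measured: beside THBS1, the integrin ITGB1 (0.42, SE 0.12) rose in siFoxA1 titles and CD47 (0.65, SE 0.17), a thrombospondin receptor, in parental titles. Each related gene named so far differed by less than its own member of the 9, except SAA1 in siFoxA1 titles.

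The enzyme and carrier families held genes that moved in either direction. Carbonic anhydrases had 4 of 15 measured; beside CA4, CA11 rose in siFoxA1 titles (0.96, SE 0.20) and parental titles (0.65, SE 0.20), and CA12 fell in siFoxA1 titles (-0.59, SE 0.13). Of 5 tolloid proteases and enhancers, 4 were measured, and PCOLCE2, an enhancer of procollagen cleavage, fell in both titles (-1.33 and -1.04, SE 0.32 each). EF-hand calcium binders had 4 of 7 measured, with SCGN called in both and NCALD (1.48, SE 0.35) in parental titles. Lipocalins and iron partners had 3 of 7 measured, and the lipocalin APOD fell in both titles (-4.48 in siFoxA1 and -1.53 in parental titles, SE 0.27 each), opposite to LCN2. Of 6 kelch relatives, all were measured and ENC1 alone was called; of 6 elastase inhibitors and 4 glycine acyltransferases, SLPI and GLYATL2 alone were measured; and of the FOXA family only FOXA1 was.

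The genes whose level followed the mean of the 9 most closely over the 8 arrays of a set were taken by the highest Pearson r. Those of the DHT set were ST8SIA2 (r = 0.9971), GDE1 (0.9957), QPRT (0.9927), PPP1R1B (0.9917) and LINGO4 (0.9908), and in that set each of the 9 followed its own mean at 0.9703 to 0.9975. Those of the DEX set were PINK1 (0.9946), IDH1 (0.9896), S100A11 (0.9888), BTG1 (0.9883) and ATMIN (0.9881), where each of the 9 followed at 0.8984, for CA4, to 0.9923, for S1PR3. The 2 lists share no gene. Each r covers 8 arrays that fall into 2 or 4 blocks of levels, and no test was made of it.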

How the data were processed

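Biotinylated cRNA was read on 16 arrays, 8 on 1 chip per set. The deposited files give, per the file headers, the mean bead intensity of each probe, exported from BeadStudio without normalization, and a detection p-value. The authors' table of intensity values per set was used as an alternative; how it was normalized is not given in the sources used here. Scanner rows were joined to probe identifiers by rank over 8 arrays (48794 and 47231 joined; simulated join 20000 of 20000), and symbols came from the platform annotation.

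Signals were background-corrected, quantile normalized within a set and log2 transformed with offset 16 (limma 3.58.1 neqc, R 4.3.3). Probes with detection p under 0.01 on at least 2 of 8 arrays were kept, and the probe with the highest mean stood for each gene. Titled groups were fitted as 4 means, and replicate comparisons as replicate number crossed with 1 title plus the other title, with limma's moderated two-sided test, Benjamini-Hochberg adjustment over all genes and a threshold of 0.05; the fits were tested on simulated data. Samples with the same number deviated together in all 6 pairs of groups (r of 0.432 to 0.743 for DHT and 0.543 to 0.738 for DEX). Named are the 9 genes, FOXA1, the 5 closest genes per set and at most 4 genes of each related list by moderated statistic. The members, lists and tests were chosen with earlier results of these data known. The title crossed with replicate number was the hormone title in the DHT set and the siRNA title in the DEX set. It was chosen because arrays that share it and the replicate number had been seen to be nearest. The spread behind the p-values of the replicate comparisons can therefore be too small. Levels were not compared between probes or between sets. The number of arrays limits the precision. Alternatives changed the offset, background correction, scaling, filter, values, replicate terms and arrays.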

Additional observations from a re-analysis of the deposited data

Results flagged for a closer look

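In the DHT set the difference of replicate 2 minus replicate 1 was not the same under the 2 hormone titles for 2 of the 9 genes: DHT minus vehicle titles stood at -1.07 for SLPI and -0.99 for THBS1 on the log2 scale. In the DEX set the same difference was smaller in siFoxA1 than in parental titles for 5 of the 9, at -4.61 for SLPI, -1.92 for ENC1, -1.08 for S1PR3, -0.98 for GLYATL2 and -0.95 for CA4. Each passed limma's test of the difference itself with all arrays of its set. In the DHT set both rest on vehicle arrays that were mostly undetected, and leaving out 1 array gave 0 to 2 called. In the DEX set both parental arrays of replicate 1 were undetected for SLPI and GLYATL2. There GLYATL2 stood at 0.044 without background correction, and leaving out 1 array gave 3 to 5 called.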

How the results depend on the processing

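Of the counts of called genes under other settings, 226 stayed within 1.5 times and 26 did not. All 9 genes stayed called higher in replicate 2 of the DEX set, in both siRNA titles, without any 1 array and in every other setting that tested them. For SCGN, LCN2 and TLL2, which passed the main filter only through replicate 2, that direction was built in. Requiring detection on all 8 arrays tested only 2 of the 9 on version 3 and 3 on version 4 arrays. In the first set it called 2 and 2 higher by hormone title, 0 higher and 1 lower in replicate 2 of DHT titles, 0 higher in vehicle titles and 0 in the DHT-set difference between titles. In the second it called 3 and 3 higher in replicate 2, 2 higher and 0 lower by siRNA title in replicate 1, 1 and 1 in replicate 2, and 3 in the difference between titles. The DHT-set difference between hormone titles called 1 lower with offset 50, median scaling, the authors' values or no filter, and 1 higher without background correction. Median scaling called 2 higher in replicate 2 of vehicle titles. With main effects only, which forces 1 siRNA effect on both replicates, 4 were higher and 1 lower by siRNA title in replicate 2 of the DEX set, and 2 were lower in replicate 2 of vehicle titles. With the replicate block, 2 were called higher and 1 lower in siFoxA1 against parental titles of the DEX set under DEX and under vehicle, and no other count of called genes changed by over 1.5 times. Signs that turned were, with main effects only, -0.057 for ENC1 (DHT titles) and -0.21 for TLL2 (vehicle titles) in replicate 2 of the DHT set, and -0.64 for ENC1, -0.36 for SCGN (replicate 1) and 1.19 for SLPI (replicate 2) by siRNA title. In the DHT-set difference between titles S1PR3 turned to -0.0459 and SCGN to 0.10 with offset 50, and to -0.17 and 0.12 without background correction, and GLYATL2 turned to 0.044 in that of the DEX set. SCGN was 0 by siRNA title in replicate 1 on the authors' values. For each of these, and for the counts above that moved with offset, scaling, filter or background correction, the cause was not tested. Leaving out 1 array at a time gave 3 to 9 called by hormone title in either siRNA title, at 3 in parental titles without the DHT parental array of replicate 1, and in siFoxA1 titles at 3 without the DHT siFoxA1 array of replicate 1 or the vehicle siFoxA1 array of replicate 2 and 4 without that of replicate 1. In replicate 2 of the DHT set it gave 0 to 1 higher and 1 to 3 lower for DHT titles, 1 to 2 higher and 0 to 1 lower for vehicle titles, and 0 to 2 lower for the difference. With DEX arrays it gave 3 to 5 for the difference. Single values that crossed 0 were, for replicate 2 of DHT titles, ENC1 (-0.078 to 0.27). For vehicle titles they were CA4 (-0.059 to 0.20), ENC1 (-0.43 to 0.00595), LCN2 (-0.52 to 0.041) and TLL2 (-0.22 to 0.75). For the DHT-set difference they were GLYATL2 (-1.13 to 0.17), LCN2 (-0.46 to 0.11), S1PR3 (-0.39 to 0.51) and SCGN (-0.29 to 0.17). For DEX arrays they were LCN2 in the difference (-0.56 to 0.21), and by siRNA title LCN2 (-0.49 to 0.28) and SCGN (-0.038 to 0.21) in replicate 1 and LCN2 (-0.59 to 0.019) in replicate 2. Undetected arrays limit SCGN, LCN2, SLPI, TLL2, CA4, THBS1 and GLYATL2.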

Other observations

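Among genes outside the 9, the largest fitted difference was that of IGFBP3, chosen here after its values were seen, in both DHT versus vehicle contrasts and in replicate 2 against replicate 1 of both siRNA titles of the DEX set. IGFBP3 encodes a secreted binding protein of insulin-like growth factors. It stood at 5.23 in siFoxA1 and 5.62 in parental titles of the DHT set, and at 3.87 and 4.21 in the DEX set (adjusted p = 1.14e-13 and 1.58e-14, limma).

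Of the genes outside the 9 that were called higher on arrays titled DHT, 27 from siFoxA1 titles and 28 from parental titles were also tested in the DEX set. Replicate 2 was called higher there for 24 of the 27 in siFoxA1 titles (88.9% of them and 1.97% of the 1221 others called, where 11.2% of all genes were called higher) and for 28 of the 28 in parental titles (100% and 2.19% of 1278, where 11.7% of all genes were called higher). Taken across titles, it was called higher in siFoxA1 titles for 23 of the 28 from parental titles (82.1% of them and 1.88% of the 1221), and in parental titles for 27 of the 27 from siFoxA1 titles (100% and 2.11% of the 1278).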
